A study of Mus musculus with 20 samples.

Results

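The aminoacyl-tRNA synthetases were followed in liver RNA-seq of male C57BL/6 mice as 36 genes, 20 for cytosolic enzymes and 16 for mitochondrial enzymes, of the 21780 genes in the count table. The members were chosen by name, and the Ensembl identifiers of all 36 were found in the mouse annotation (GENCODE M21, GRCm38.p6), where Mars1 is listed as Mars. Positions below are those of the gene in GRCm38. Cytosolic enzymes carry the plain symbol of their amino acid and mitochondrial enzymes a symbol ending in 2.

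All 20 mice ate a high-fat diet (HFD) with 42% of its energy from fat for 12 weeks from 8 weeks of age, and received a single oral gavage at 10 weeks of age. The 5 HFD control mice received the corn oil vehicle, the 5 HFD + Aroclor mice 20 mg/kg Aroclor 1260, the 5 HFD + PCB 126 mice 20 µg/kg PCB 126, and the 5 HFD + Aroclor + PCB 126 mice (the combined exposure) both. Livers were taken 10 weeks after the gavage. Aroclor 1260 is a commercial mixture of mostly non-dioxin-like polychlorinated biphenyls (PCBs) and PCB 126 is a dioxin-like congener that activates the aryl hydrocarbon receptor. No group on a control diet and no unexposed time point was part of this comparison, so every difference is between mice on the same diet.

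An aminoacyl-tRNA synthetase joins an amino acid to its tRNA, the step at which the genetic code is read into charged tRNA. The enzymes fall into class I and class II by the fold of their catalytic domain. In the cytosol, a group of them is held with scaffold proteins in the multisynthetase complex, whereas mitochondria import their own set from nuclear genes to translate the few proteins encoded by mitochondrial DNA. Gars and Kars each encode both a cytosolic and a mitochondrial enzyme, and Eprs encodes a fused enzyme for glutamate and proline. Many cytosolic synthetase genes are targets of ATF4, the transcription factor of the amino acid and integrated stress response.

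Depth did not limit the comparisons of these genes. Total counts per library ranged from 21836506 to 36854887, and the lowest count of any member in any library was 49 (the lowest of any cytosolic member was 215). All 36 members were among the 15522 genes tested. The libraries differed, however, in how counts depended on the GC content of a gene's transcripts. The GC slope of a library is the change of its log2 CPM (counts scaled to library size), relative to the mean of all libraries, per 10 percentage points of GC. It was 0.449, 0.308, 0.195, 0.116 and 0.183 in the HFD control mice and -0.268, -0.360, -0.130, -0.556 and -0.460 in the combined exposure, so that all mice of the combined exposure lay below all control mice (difference -0.605, exact permutation test of 5 against 5 mice, two-sided, p = 0.00794, the smallest this design allows, adjusted p = 0.0119 over 3 comparisons). In the Aroclor mice the slope ranged from -0.102 to 0.111, also below all controls (difference -0.254, exact permutation p = 0.00794, adjusted p = 0.0119). Over the genes above 1 CPM, on which the correction is fitted, the Aroclor and control slopes overlapped (difference -0.247, exact permutation p = 0.0317), while those of the combined exposure and control did not. In the PCB 126 mice it overlapped the controls (difference -0.142, exact permutation p = 0.230), with slopes of 0.371 and 0.257 in replicates 3 and 4 and -0.110 to 0.0607 in the other mice. The combined exposure and the library GC slope therefore cannot be told apart in the comparison with HFD control, and the counts of members called against HFD control are given below with and without a correction for GC. A gene was called where edgeR's adjusted p, taken over all tested genes, was under 0.05, and log2FC is the fitted log2 fold change.

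**Figure D1:**
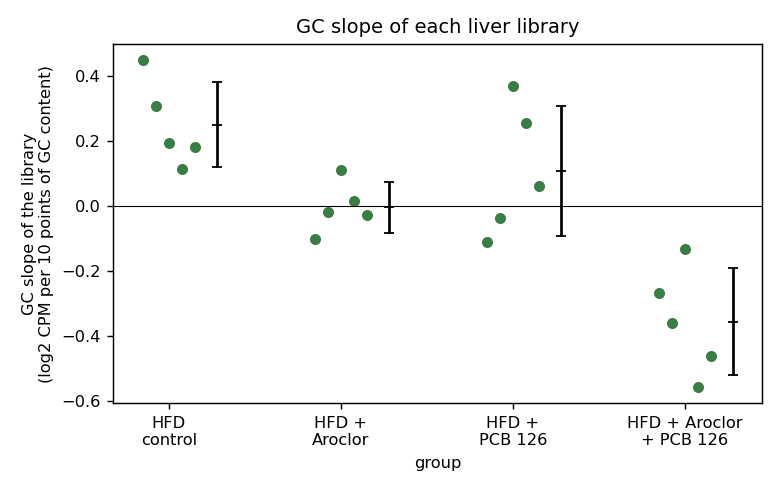
GC slope of each liver library (log2 CPM per 10 percentage points of GC content; points, mice; bars, mean ± SD, n = 5) by group. The HFD control libraries lie between 0.116 and 0.449 and the libraries of the combined exposure between -0.556 and -0.130.

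To place the genes by abundance, their levels were compared per transcript length, as FPKM (counts scaled to library size and exon length, computed here). In HFD control livers the cytosolic members had a median of 11.1 FPKM and ranged from 3.50 (Vars) to 23.9 (Nars). The mitochondrial members had a median of 2.98 FPKM and, apart from Lars2, ranged from 0.338 (Mars2) to 10.7 (Iars2). The median of all tested genes was 1.69 FPKM. Among the cytosolic enzymes, the levels of Nars (23.9 ± 2.41, SD, n = 5), Aars (21.9 ± 2.11), Dars (18.9 ± 2.54) and Gars (18.5 ± 0.607) came first, and neighbours in this order differed by less than the larger of their SDs, except for Aars and Dars. The lowest were Wars (4.35 ± 0.374), Farsa (4.13 ± 0.430), Cars (3.57 ± 0.366) and Vars (3.50 ± 0.412), of which only Farsa and Cars, as neighbours, differed by more than that. Farsa and Farsb encode the α and β subunits of the same phenylalanyl enzyme, and Farsb was listed at 15.6 ± 1.06 FPKM, above Farsa. Lars2 stood apart from all other members at 239 ± 58.2 FPKM, with 49924 to 104372 counts per library, and it held 85.2 to 91.6% of all counts of the 16 mitochondrial members. From where in the gene these Lars2 counts came was not examined. Levels and fold changes over members are given as medians, so that no single gene sets them. The balance of the compartments within each mouse, given below, is instead a mean of log2 FPKM and includes Lars2.

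**Figure D2:**
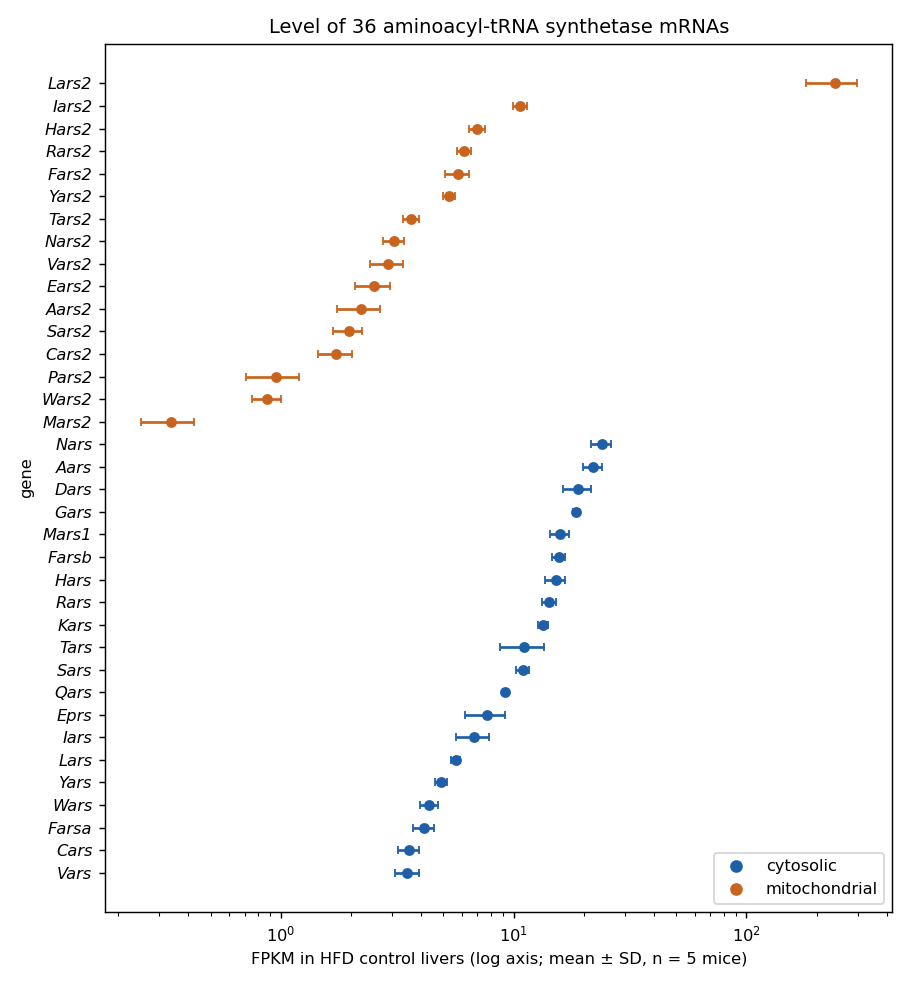
FPKM (log axis) of each of the 36 synthetase mRNAs in the HFD control livers (points, mean; bars, SD, n = 5 mice), cytosolic below and mitochondrial above. Most cytosolic members lie above most mitochondrial members, and Lars2 lies highest at 239 FPKM.

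In 16 pairings of a cytosolic with a mitochondrial enzyme for the same amino acid (Eprs entered against both Ears2 and Pars2, and Farsa stood for phenylalanine), the cytosolic mRNA had the higher FPKM in 12. The ratio of the cytosolic to the mitochondrial level was 46.8 for methionine (Mars1 against Mars2), 9.93 for alanine and 5.59 for serine. The mitochondrial mRNA was the higher for phenylalanine (ratio of Farsa to Fars2, 0.716), isoleucine (0.631), leucine (0.0236) and tyrosine (0.922). For phenylalanine this depends on the subunit entered, since Farsb (15.6 FPKM) was above Fars2 (5.77 FPKM).

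Since several cytosolic synthetase genes are known ATF4 targets, their promoters were searched for the C/EBP-ATF response element that ATF4 binds, spelled TGATGNAA and read on both strands, in the RefSeq promoters (GRCm38.p6; 250 bases before to 50 bases after the start of transcription). These tables held 27 of the 36 members. The motif was present in 5 of 13 cytosolic members (Aars, Gars, Iars, Tars and Yars) and in 0 of 14 mitochondrial members, against 3.97% of all 32851 promoters. Stretches of 30 bases that hold it are shown, 1 for each gene, 5′ to 3′ on the strand of the gene, with the motif in capitals.
Aars (from base 10 of the transcript, chr8:111033837-111033866, plus strand): cgtagcgggtcactTTTCATCAgagcgctc
Gars (30 bases before the start, chr6:55037960-55037989, plus strand): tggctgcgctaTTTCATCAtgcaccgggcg
Iars (from base 8 of the transcript, chr13:49682125-49682154, plus strand): gcactgtcagtaTTGCATCAcctccagacg
Tars (15 bases before the start, chr15:11399655-11399684, minus strand): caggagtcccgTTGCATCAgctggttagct
Yars (from base 4 of the transcript, chr4:129189895-129189924, plus strand): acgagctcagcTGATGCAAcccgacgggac
The motif reads forward in Yars and on the opposite strand in the other 4 genes. Starts are those of RefSeq, and for Aars, Iars, Tars and Yars the annotated gene begins upstream of the RefSeq start. A match is one of letters, not a measured binding site.

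The combined exposure was the condition in which synthetase mRNAs were called against HFD control. Of the 20 cytosolic members, 8 were lower (Aars, Cars, Farsa, Kars, Qars, Sars, Vars and Wars) and 1 was higher (Dars). Of the 16 mitochondrial members, 6 were lower (Aars2, Cars2, Ears2, Sars2, Tars2 and Vars2) and 4 were higher (Mars2, Nars2, Rars2 and Wars2). Among all tested genes, 32.8% were called in this comparison, 17.0% lower and 15.8% higher (edgeR's quasi-likelihood test, adjusted p under 0.05). The 14 of 36 members called lower were therefore a larger share than in the whole table, and the 5 of 36 called higher were not. The median log2FC was -0.17 for the cytosolic and -0.08 for the mitochondrial members, beside -0.001 for all tested genes. In 9 members all mice of the combined exposure were below all control mice, and in 1 (Rars2) all were above. Over all tested genes these shares were 8.14% and 10.6%.

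**Figure D3:**
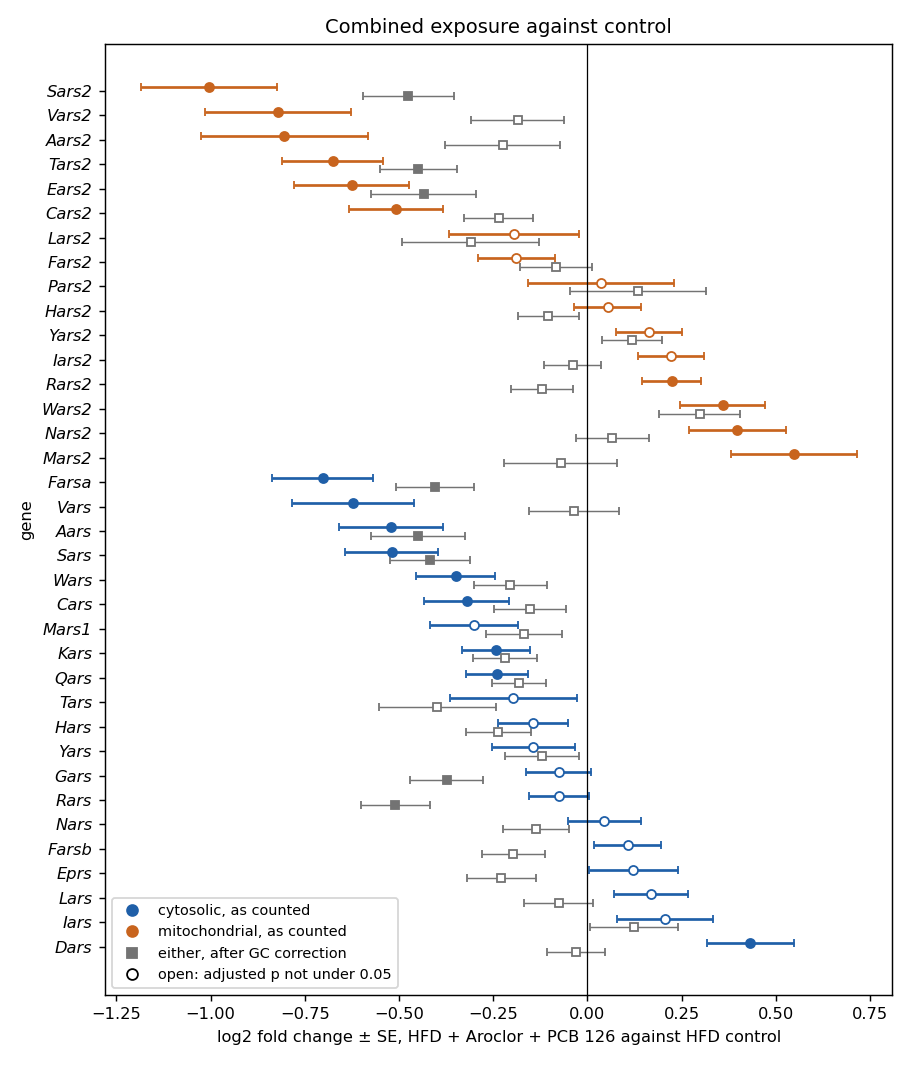
log2 fold change ± SE of the 36 members in the combined exposure against HFD control (5 mice each), as counted (circles) and after GC correction (grey squares); filled symbols have an adjusted p under 0.05. As counted, 14 members are called lower and 5 higher; after correction 8 are called, all of them lower.

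The direction of change of the members followed the GC content of their transcripts. Across the 36 genes, Pearson's r between log2FC and transcript GC was -0.859 (Spearman's rho -0.867), given as a description, since the genes share libraries and are not independent replicates. Of the 10 members under 48% GC, 4 were called higher and 0 lower, with a median log2FC of 0.20. Of the 11 between 48% and 52%, 1 was higher and 2 were lower (median -0.14). Of the 15 over 52%, 12 were lower and 0 higher (median -0.52). The same split of all tested genes gave medians of 0.36, 0.05 and -0.40, so the members followed the trend of the table and lay below it in each of the 3 classes. The members furthest below 0 were GC-rich: Sars2 (58.0% GC), Vars2 (60.3%) and Aars2 (59.2%). Those furthest above 0, Dars (42.3%) and Mars2 (38.8%), were GC-poor.

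**Figure D4:**
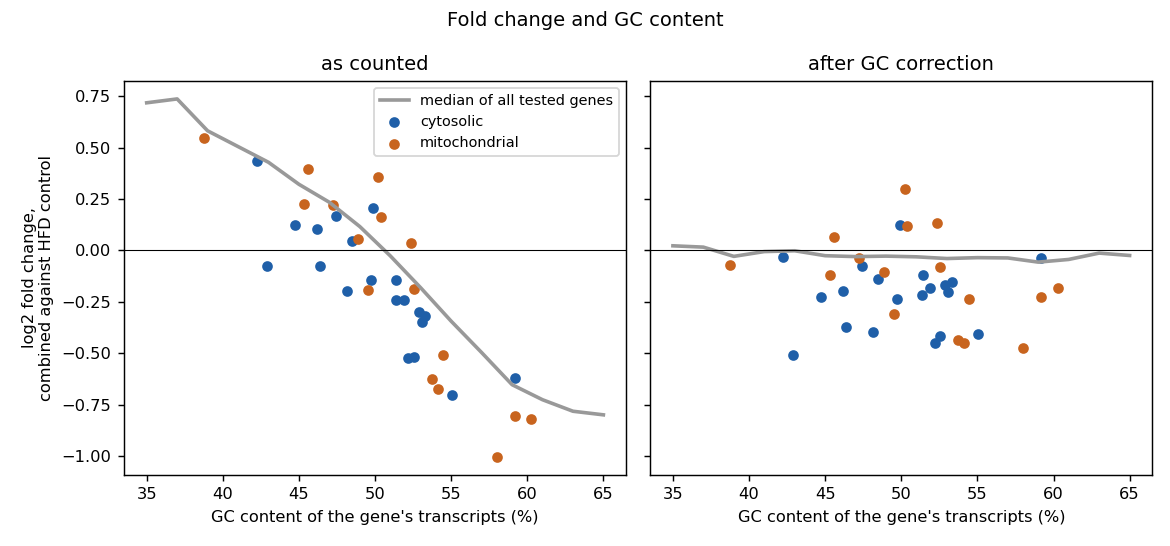
log2 fold change in the combined exposure against HFD control over the GC content of each member's transcripts, as counted (left) and after GC correction (right); the grey line is the median of all tested genes in 2-point classes of GC content with 20 or more genes. On the left the members follow the grey line downwards (r = -0.859), and on the right r is -0.170.

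Among the cytosolic enzymes, Farsa (ENSMUSG00000003808, chr8:84856989-84869257), the catalytic α subunit of phenylalanyl-tRNA synthetase, showed the largest change. Its level was 17.5, 18.5, 17.5, 18.1 and 22.1 CPM in the HFD control mice and 13.6, 11.8, 13.8, 9.02 and 9.41 CPM in the combined exposure. All combined mice were below all controls, and so were all Aroclor mice (12.8 to 16.7 CPM), whereas the PCB 126 mice (12.5 to 17.9 CPM) overlapped the controls. Both single exposures overlapped the combined range. With Aroclor Farsa was not called (log2FC -0.38, edgeR adjusted p = 0.208). In the combined exposure the log2FC was -0.70 (SE 0.134, edgeR adjusted p = 0.00125). Control replicate 5 was the highest of its group, and without it the log2FC was -0.64. Farsb, which encodes the partner subunit, was not called (log2FC 0.11, SE 0.0888, adjusted p = 0.390).

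Vars (ENSMUSG00000007029, chr17:35000987-35016322), the valyl enzyme, which works outside the multisynthetase complex with elongation factor 1, was at 19.2, 19.9, 20.6, 16.1 and 22.4 CPM in controls and 15.3, 14.4, 14.6, 7.82 and 11.8 CPM in the combined exposure. The groups did not overlap, and replicate 4 of the combined exposure was the lowest mouse. The log2FC was -0.62 (SE 0.162, edgeR adjusted p = 0.00657). Vars is the most GC-rich cytosolic member (59.2%).

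Aars (ENSMUSG00000031960, chr8:111033144-111057664), the alanyl enzyme, was at 184, 197, 231, 189.7 and 216 CPM in controls and 166, 163, 163, 92.96 and 125 CPM in the combined exposure, with no overlap. The log2FC was -0.52 (SE 0.137, edgeR adjusted p = 0.007). Its exons share 1326 bases with Exosc6 on the same strand, 14.3% of their length, and reads there could have been assigned to either gene or to none.

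Sars (ENSMUSG00000068739, chr3:108424865-108445209), the seryl enzyme, was at 58.5, 53.95, 57.1, 51.4 and 60.7 CPM in controls and 42.95, 41.9, 46.9, 30.6 and 34.2 CPM in the combined exposure, again with no overlap. The log2FC was -0.52 (SE 0.122, edgeR adjusted p = 0.00371). The mitochondrial counterparts of Sars and Aars were also called lower as counted, as were those of Cars and Vars. Of these mitochondrial members, only Sars2 was still called after GC correction.

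Dars (ENSMUSG00000026356, chr1:128363707-128417368), the aspartyl enzyme of the multisynthetase complex, was the only cytosolic member called higher. It was at 66.7, 76.7, 95.7, 88.2 and 83.8 CPM in controls and 116.5, 115, 94.6, 115 and 114 CPM in the combined exposure. The ranges overlapped through replicate 3 of the combined exposure. The log2FC was 0.43 (SE 0.115, edgeR adjusted p = 0.00737). Of the other cytosolic members called lower, Wars (log2FC -0.35), Cars (-0.32), Kars (-0.24) and Qars (-0.24) had adjusted p between 0.0147 and 0.0430.

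The largest change of any member was in Sars2 (ENSMUSG00000070699, chr7:28741992-28753871), the mitochondrial seryl enzyme. Its level was 7.16, 6.99, 6.98, 4.91 and 6.45 CPM in the HFD control mice and 2.86, 3.54, 4.76, 2.18 and 2.87 CPM in the combined exposure. The groups did not overlap: the highest combined mouse, replicate 3, was just below the lowest control, replicate 4. The log2FC was -1.004 (SE 0.181, edgeR adjusted p = 0.00104).

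Tars2 (ENSMUSG00000028107, chr3:95739976-95760206), the mitochondrial threonyl enzyme, was at 26.9, 25.2, 26.4, 21.97 and 25.8 CPM in controls and 18.4, 17.9, 18.3, 11.4 and 13.1 CPM in the combined exposure, with no overlap. The log2FC was -0.68 (SE 0.134, edgeR adjusted p = 0.00153). The Aroclor mice ranged from 17.6 to 23.1 CPM and the PCB 126 mice from 20.01 to 28.7 CPM, so the single exposures overlapped the controls.

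Ears2 (ENSMUSG00000030871, chr7:122037213-122067263), which charges glutamate on mitochondrial tRNA for glutamate and, before transamidation, on that for glutamine, was at 11.4, 11.8, 12.9, 12.1 and 16.8 CPM in controls and 9.86, 9.20, 9.10, 6.65 and 7.27 CPM in the combined exposure. The groups did not overlap, and control replicate 5 stood above the other controls. The log2FC was -0.62 (SE 0.153, edgeR adjusted p = 0.00464).

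Vars2 (ENSMUSG00000038838, chr17:35655634-35667592) and Aars2 (ENSMUSG00000023938, chr17:45506841-45520843), which encode the mitochondrial valyl and alanyl enzymes, are the most GC-rich of the mitochondrial members. Vars2 was at 16.8, 15.3, 19.1, 12.2 and 15.3 CPM in controls and 10.9, 10.9, 11.02, 4.87 and 6.96 CPM in the combined exposure, without overlap. The log2FC was -0.82 (SE 0.193, edgeR adjusted p = 0.0037). Aars2 was at 11.7, 11.3, 12.3, 6.75 and 10.6 CPM in controls and 8.23, 6.56, 7.87, 2.73 and 4.86 CPM in the combined exposure, and the ranges overlapped through control replicate 4. The log2FC was -0.80 (SE 0.222, edgeR adjusted p = 0.00916). The 4 mitochondrial members called higher had log2FC of 0.55 (Mars2), 0.40 (Nars2), 0.36 (Wars2) and 0.22 (Rars2), with adjusted p between 0.0158 and 0.0346. Mars2 (0.338 FPKM) and Wars2 (0.876 FPKM) had the lowest levels of all members in HFD control livers. A filter with a minimum of 1 FPKM, used as an alternative, dropped both.

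**Figure D5:**
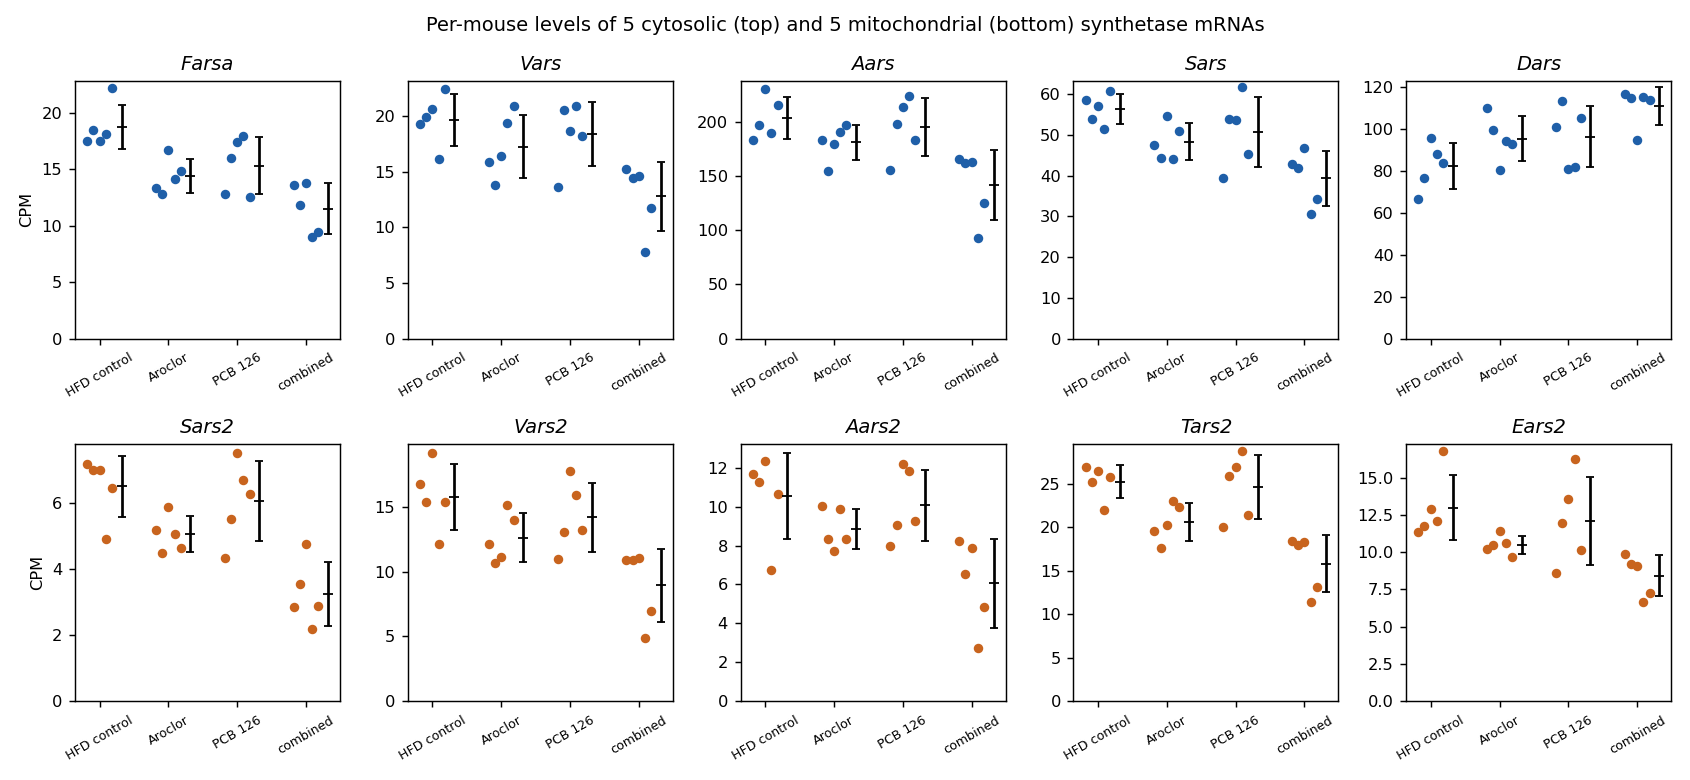
CPM of 5 cytosolic (blue) and 5 mitochondrial (orange) synthetase mRNAs in each mouse of the 4 groups (points, mice; bars, mean ± SD, n = 5; axes start at 0). In Farsa, Vars, Aars, Sars, Sars2, Vars2, Tars2 and Ears2 all mice of the combined exposure lie below all HFD control mice, whereas Dars and Aars2 overlap.

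To see which differences remained once the library GC slope was taken out, each library's smooth trend over GC content was removed as an offset in the same fit. Of the 36 members 8 were then called, all lower: the cytosolic Aars, Farsa, Gars, Rars and Sars and the mitochondrial Ears2, Sars2 and Tars2. Over all tested genes, 7.24% were called lower and 5.25% higher after this correction. No member was called higher (edgeR, smallest adjusted p among those with a positive log2FC, 0.0752, Wars2), and the 5 members higher as counted had log2FC of -0.12 to 0.30. The median log2FC was -0.20 for the cytosolic and -0.11 for the mitochondrial members, beside -0.03 for all tested genes, and 1 cytosolic member (Iars) and 4 mitochondrial members had a log2FC above 0. After the correction all mice of the combined exposure were below all control mice in 9 of 36 members and above in 0, against 6.12% and 4.43% of all tested genes.

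Of these 8 members, 6 were called both as counted and after the correction (Aars, Farsa, Sars, Ears2, Sars2 and Tars2). Their corrected log2FC were -0.45 for Aars (SE 0.126, adjusted p = 0.0242), -0.40 for Farsa (SE 0.104, adjusted p = 0.0165), -0.42 for Sars (SE 0.106, adjusted p = 0.0156), -0.43 for Ears2 (SE 0.139, adjusted p = 0.0459), -0.48 for Sars2 (SE 0.120, adjusted p = 0.0153) and -0.45 for Tars2 (SE 0.103, adjusted p = 0.00971). The change of Sars2 was thus less than 1 SE apart from those of Tars2 and Aars once GC was corrected, whereas as counted it was the largest. Vars (corrected log2FC -0.03, adjusted p = 0.900), Vars2 (-0.18, 0.366), Aars2 (-0.22, 0.370) and Dars (-0.03, 0.859) were no longer called, and the log2FC of Dars changed sign.

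Gars and Rars appeared only after the correction and are named here because of it. Rars (ENSMUSG00000018848, chr11:35808381-35834506), the arginyl enzyme of the multisynthetase complex, has a GC-poor transcript (42.9%). Its GC-corrected level was 53.8, 54.02, 51.2, 51.3 and 49.4 CPM in controls and 35.7, 38.1, 37.8, 36.5 and 34.3 CPM in the combined exposure, with no overlap (corrected log2FC -0.51, SE 0.0917, edgeR adjusted p = 0.00291). As counted its log2FC was -0.08 with an adjusted p of 0.518. Gars (ENSMUSG00000029777, chr6:55038007-55079500), the glycyl enzyme of cytosol and mitochondria (46.4% GC), was at a corrected 65.5, 65.2, 64.8, 61.4 and 59.2 CPM in controls and 47.6, 53.2, 51.2, 44.5 and 47.6 CPM in the combined exposure, again with no overlap (corrected log2FC -0.37, SE 0.0969, edgeR adjusted p = 0.0172). With the library GC slope as a covariate in place of the offset, 0 of 36 members were called by edgeR (1 had an unadjusted p under 0.05), and 1.71% of all tested genes were called.

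Leaving out 1 library at a time moved these counts. As counted, between 13 and 20 members were called, the fewest without control replicate 1 or without replicate 5 of the combined exposure. After GC correction, between 4 and 9 were called, the fewest without replicate 5 of the combined exposure, which left Gars, Rars, Sars2 and Tars2. These 4 were called in all 20 such fits, Farsa and Sars in 19, Aars in 17 and Ears2 in 7. Of the members not called with all libraries, Wars2 was called in 2 of these fits and Cars2 in 1. Their corrected log2FC with all libraries were 0.30 and -0.24, so a call did not always fall on a lower member. Exons of 10 members overlap another gene of the table, all but Aars on the opposite strand. Among the 26 members without such an overlap, 11 were lower and 5 higher as counted, beside 17.0% and 15.8% of all tested genes. After GC correction 6 were lower, beside 7.24%.

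Membership of the multisynthetase complex was compared next. Of the 8 complex-bound members (Eprs, Iars, Lars, Mars1, Qars, Rars, Kars and Dars), 2 were called lower and 1 higher as counted (median log2FC 0.02). Of the 12 other cytosolic members, 6 were called lower and 0 higher (median -0.26). Among all tested genes, 17.0% were called lower and 15.8% higher (median -0.001). After GC correction 1 of 8 and 4 of 12 were called lower, with medians of -0.17 and -0.22, so the medians were closer. The share of all tested genes called lower after this correction was 7.24%. Eprs, whose product is also a translational repressor in interferon-treated cells, had a log2FC of 0.12 as counted (adjusted p = 0.471) and -0.23 after correction (0.109). Kars, whose product also acts as a signalling protein, was called as counted (log2FC -0.24, adjusted p = 0.0430) but not after correction (-0.22, 0.0943). By catalytic class, 7 of 18 class I and 7 of 17 class II members were lower as counted, beside 17.0% of all tested genes. After correction 2 of 18 and 6 of 17 were lower, beside 7.24%. Eprs belongs to both classes and was left out of this count.

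Enzymes for the same amino acid were set side by side. Of the 16 pairings, 6 had a log2FC below 0 in both compartments as counted (alanine, cysteine, phenylalanine, serine, threonine and valine), 3 were above 0 in both, and 7 differed in sign. After GC correction 11 were below 0 in both and 5 differed in sign. Phenylalanine was entered with Farsa. The other subunit, Farsb, was at 0.11 as counted and -0.20 after correction, and Fars2 at -0.19 and -0.08. For serine the log2FC was -0.52 (Sars) and -1.004 (Sars2) as counted and -0.42 and -0.48 after GC correction. For alanine it was -0.52 (Aars) and -0.80 (Aars2) as counted and -0.45 and -0.22 after correction. For threonine it was -0.20 (Tars) and -0.68 (Tars2), and -0.40 and -0.45. The sign was opposite in both settings for tryptophan and tyrosine. Wars was at -0.35 and Wars2 at 0.36 as counted, and at -0.20 and 0.30 after correction. Within each mouse, the mean log2 FPKM of cytosolic members exceeded that of mitochondrial members by 1.33 to 1.64 in controls (median 1.39) and by 1.40 to 1.57 in the combined exposure (median 1.47), so the balance of the compartments overlapped between the groups.

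With either PCB exposure alone, no synthetase mRNA passed the threshold. Against HFD control, 0 of 36 members were called with Aroclor (edgeR; 3 had an unadjusted p under 0.05, DESeq2 and the fit after GC correction called 0), beside 0% of all tested genes. With PCB 126, 0 were called (3 with an unadjusted p under 0.05, DESeq2 and GC correction 0), beside 0.116% of all genes. The log2FC of the members ranged from -0.38 (Farsa) to 0.28 (Pars2) with Aroclor and from -0.29 (Farsa) to 0.44 (Mars2) with PCB 126. The medians were -0.06 and 0.01. The interaction, which sets the log2FC of the combined exposure against the sum of those of the single exposures, was called for 0 members (edgeR; 3 with an unadjusted p under 0.05, DESeq2 and GC correction 0) and 0% of all genes, so a difference of the combined exposure from additivity was not detectable in these genes with 5 mice a group.

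Sars2 may serve as an example of the levels across the groups. It was at 5.19, 4.49, 5.86, 5.05 and 4.64 CPM in the Aroclor mice and 4.32, 5.51, 7.52, 6.68 and 6.26 CPM in the PCB 126 mice. The log2FC against control was -0.37 (SE 0.176, edgeR adjusted p = 0.291) with Aroclor and -0.10 (SE 0.176, adjusted p = 0.826) with PCB 126. The Aroclor mice overlapped the control range only through control replicate 4, and the PCB 126 mice spanned it.

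Against PCB 126 alone, the combined exposure had 12 members lower and 0 higher, 6 cytosolic (Aars, Farsa, Kars, Qars, Sars and Vars) and 6 mitochondrial (Aars2, Cars2, Ears2, Sars2, Tars2 and Vars2). Among all 15522 tested genes, 16.7% were called, 1714 genes lower and 875 higher, so the whole table also leaned lower. The largest log2FC was again that of Sars2 (-0.90, SE 0.181, edgeR adjusted p = 0.0136). After GC correction 0 members were called (edgeR; 16 with an unadjusted p under 0.05, smallest adjusted p 0.0510), beside 0.490% of all genes. Without PCB 126 replicate 3, the mouse of that group with the highest GC slope, 0 members were called as counted, and 2, 3, 2 and 7 without PCB 126 replicate 4, combined replicate 4, combined replicate 5 and PCB 126 replicate 2. Against Aroclor alone, 0 members were called by edgeR (15 with an unadjusted p under 0.05), beside 0.412% of all genes. After GC correction 0 were called as well, and DESeq2 called 3 (Wars, Cars2 and Sars2). The 0.412% is that of the edgeR fit, and the share of all genes called by DESeq2 is not given here. These comparisons share the combined mice with the comparison against HFD control and are not independent of it.

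Partners of the synthetases in translation were described from lists of related genes, all in the combined exposure against HFD control. Among all tested genes, 17.0% were lower and 15.8% higher as counted, and 7.24% and 5.25% after GC correction. Of the 3 scaffold genes of the multisynthetase complex, Aimp2 was lower (log2FC -0.47, SE 0.151, edgeR adjusted p = 0.0217) and Aimp1 and Eef1e1 were not called; after GC correction only Aimp1 was (log2FC -0.46, adjusted p = 0.0188). Qrsl1, Gatb and Gatc, which encode the subunits of the enzyme that makes glutaminyl-tRNA by transamidation in mitochondria, were not called (log2FC 0.15, -0.04 and 0.16, edgeR adjusted p = 0.479, 0.847 and 0.0985) and were not called after correction either (adjusted p = 0.782, 0.847 and 0.775). Of the 4 genes that proofread mischarged tRNA, 0 were called (edgeR; 1 with an unadjusted p under 0.05, Aarsd1, log2FC -0.93, adjusted p = 0.0822), and after Aarsd1 the log2FC furthest from 0 was that of Dtd1 (-0.17). After correction Prorsd1 was lower (-0.42, adjusted p = 0.0111).

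Of the 5 cytosolic elongation factor genes, which deliver the charged tRNA to the ribosome and move it on, 3 were lower: Eef1d (log2FC -0.70), Eef2 (-0.55) and Eef1g (-0.36). The share of all tested genes called lower was 17.0%. Eef1a1, by far the most abundant at a mean of 2997 CPM in controls and 3167 CPM in the combined exposure, was not called (log2FC 0.08, edgeR adjusted p = 0.501). After GC correction 0 of the 5 were called (smallest adjusted p 0.0529, 2 with an unadjusted p under 0.05). Of the 10 mitochondrial translation factor genes, 4 were called, beside 32.8% of all tested genes. Tufm (-0.57), Tsfm (-0.40) and Mtif3 (-0.30) were lower and Gfm1 (0.28) was higher. After correction these 4 were not called, whereas Mrrf (-0.37, adjusted p = 0.00744) and Mtrf1l (-0.46, adjusted p = 0.0374) were lower.

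Genes of the amino acid response were examined as well, because ATF4 controls part of the synthetase set. Of 30 listed genes, 9 were lower and 1 was higher (Gpt2, log2FC 0.41), with a median log2FC of -0.12. These 10 of 30 called were near the share of all tested genes (32.8%, 17.0% lower and 15.8% higher). The 4 furthest from 0 were Phgdh, the first enzyme of serine synthesis (-2.04, SE 0.696, edgeR adjusted p = 0.0297, at a mean of only 0.166 CPM in controls), Chac1, a glutathione-degrading enzyme (-1.42, SE 0.505, 0.0366), Ddit3, which encodes the stress factor CHOP (-1.35, SE 0.291, 0.00228), and the transcription factor Atf5 (-1.25, SE 0.171, 0.000487). With PCB 126 alone these 4 had log2FC of -1.55, -0.41, -1.39 and -0.82, and with Aroclor alone -0.29, -0.72, -1.03 and -0.46. None was called as counted in either (edgeR, smallest adjusted p 0.0506, Ddit3 and Atf5 with PCB 126). After GC correction Ddit3 was called with PCB 126 (-1.38, adjusted p = 0.0399). Atf4 mRNA itself was not called in the combined exposure (log2FC -0.25, adjusted p = 0.214), although ATF4 is regulated mainly in its translation, which was not measured here. In the combined exposure after GC correction 2 genes were lower, Ddit3 (-1.27, adjusted p = 0.00847) and Eif4ebp1 (-0.66, 0.0114), and 3 were higher, Gpt2 (0.83, 0.00200), Cebpb (0.87, 0.00788) and Sesn2 (0.66, 0.0333), so that the list moved in both directions. Among all tested genes 7.24% were lower and 5.25% higher after this correction. Of the 5 synthetase genes whose promoter holds the TGATGNAA motif, Aars was called lower as counted (log2FC -0.52), and the other 4 had log2FC of -0.08 (Gars), 0.21 (Iars), -0.20 (Tars) and -0.14 (Yars) and were not called. After correction Aars and Gars were. Ddit3 lies opposite Mars1 and shares 68 exon bases with it.

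As a check of the exposure labels, Cyp1a1, the classical target of the aryl hydrocarbon receptor, ranged from 0.219 to 0.941 CPM in HFD control, 0.738 to 1.23 with Aroclor, 4.09 to 314 with PCB 126 and 0.792 to 2.62 in the combined exposure. It was higher with PCB 126 (log2FC 6.93, SE 1.08, edgeR adjusted p = 0.00950) and was not called in the combined exposure (1.06, SE 1.10, adjusted p = 0.502). Cyp1a2, a second target, was higher in both (2.04, adjusted p = 0.000294, and 1.00, adjusted p = 0.00325). Cyp3a11, a target of the pregnane X receptor, was higher in the combined exposure as counted (log2FC 0.89, edgeR adjusted p = 0.00652) and not called after GC correction (0.31, adjusted p = 0.459). The calls of Cyp1a1 and Cyp1a2 given above were the same after GC correction. Against PCB 126 alone, both were lower in the combined exposure (edgeR, Cyp1a1 log2FC -5.87, adjusted p = 0.0136, and Cyp1a2 -1.04, adjusted p = 0.0144). After GC correction Cyp1a1 was still called in that comparison (adjusted p = 0.0449) and Cyp1a2 was not (0.0510). The group labelled as the combined exposure thus showed the change of Cyp1a2, less strongly than PCB 126 alone as counted, but not that of Cyp1a1.

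The samples were whole liver, in which fewer cells of a type and less RNA per cell cannot be told apart. The 6 hepatocyte markers were abundant in every library, with a summed level of 37700 to 41700 FPKM in HFD control and 32200 to 45100 FPKM in the combined exposure. Of them, Apoa1 (log2FC -0.78, edgeR adjusted p = 0.00193) and Ttr (-0.70, adjusted p = 0.00552) were lower. After GC correction Ttr was still called (-0.995, adjusted p = 0.00634) and Apoa1 was not (-0.45, adjusted p = 0.0758). The summed level of the 5 stellate cell markers was 18.2 to 35.0 FPKM in controls and 38.4 to 47.4 FPKM in the combined exposure, without overlap. Of them Lrat, Dcn and Reln were higher and Des was lower, and after GC correction only Des was called. The summed levels of the macrophage (81.9 to 188 and 108 to 148 FPKM), sinusoidal endothelial (16.7 to 38.3 and 24.8 to 31.4), cholangiocyte (38.7 to 43.1 and 37.3 to 76.9) and lymphocyte markers (0.769 to 2.36 and 1.68 to 2.01) overlapped. Single markers in these lists were called nonetheless. Adgre1 of the macrophage list (log2FC 0.82, edgeR adjusted p = 0.0248) and Ptprc, a general leukocyte gene of the lymphocyte list (0.78, adjusted p = 0.00818), were higher, and Stab2 of the endothelial list was lower (-0.50, adjusted p = 0.0077). After GC correction Stab2 was still called (-0.50, adjusted p = 0.0168), and Adgre1 (0.62, adjusted p = 0.126) and Ptprc (0.24, adjusted p = 0.510) were not. Their part in the synthetase results was not tested.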

How the data were processed

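Liver RNA of 20 male mice, 5 in each of 4 groups, was measured by stranded RNA-seq of polyadenylated RNA in 2 sequencing runs. Which library was in which run was not given in the sources used here, nor was the annotation or strand option of the counting step. The authors deposited raw counts for each Ensembl gene and library, made, per the submitters' processing notes, with FastQC 0.10.1, STAR 2.6 and HTSeq 0.10.0 on GRCm38.p6 (mm10). Groups and replicate numbers came from the sample titles. For PCB 126 replicate 2 another label shows the number of replicate 3, as the label of replicate 3 itself does.

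The members and the lists of related genes were chosen with earlier results of these data known. Genes whose counts summed to 10 or more (15522) entered 1 fit of edgeR 4.0.16 (R 4.3.3) after TMM normalization, with 4 group coefficients and 16 residual degrees of freedom. Tests were quasi-likelihood F tests, two-sided, and p-values were adjusted after Benjamini and Hochberg over all of these genes. SE is the absolute log2FC divided by the square root of the F statistic. CPM and FPKM use TMM library sizes and the union of a gene's exons (GENCODE M21), found for 21754 of the 21780 genes. The GC correction removes from each library a natural spline (6 degrees of freedom) of its log2 CPM deviation on transcript GC, fitted on genes with a mean of at least 1 CPM. Since the groups differ in GC slope, it also removes any part of an exposure effect that follows GC.

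Values are named for the members called as counted and after GC correction, for the 5 cytosolic and 5 mitochondrial called members with the largest absolute log2FC in the combined exposure, for members with a second role, and for the 4 called genes furthest from 0 of each list (the 2 furthest where none was called). Rars, the complete lists of called members and the related genes called after correction were named after their values were seen. The alternatives were RLE size factors, DESeq2 1.42.0, no filter, an FPKM filter, corrections for GC, for GC and length, and by a GC slope covariate, the replicate number as a block, each library left out, and a log2FC limit of 0.34. Leaving out each library after GC correction was chosen after seeing the data. In all 40 pairs of libraries within a group, counts differed beyond sampling noise, so no library was a second sequencing of another. Separate libraries of the same liver could differ as well, so each library was taken as 1 mouse by its title. The scripts were tested on simulated data. One gene of a related list and one promoter stretch are not reported here.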

Additional observations from a re-analysis of the deposited data

Results flagged for a closer look

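Among 44 groups of 5 values checked (the 10 members given per mouse and the library GC slope, each in 4 groups), 3 held a mouse far from the other 4 of its group by Dixon's gap test; chance flags about 1 in 20 groups. Control replicate 5 was at 22.1 CPM for Farsa, above 17.5 to 18.5 CPM in the other controls, and at 16.8 CPM for Ears2, above 11.4 to 12.9 CPM. Replicate 3 of the combined exposure was at 94.6 CPM for Dars, below 113.8 to 116.5 CPM in the other 4 mice. Without control replicate 5, Farsa and Ears2 were still called lower as counted in the combined exposure (log2FC -0.64 and -0.52). Replicate 3 of the combined exposure had the flattest GC slope of its group (-0.130). Why these mice stood apart was not tested.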

How the results depend on the processing

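Against HFD control, the combined exposure had 19 members called as counted, 8 after GC correction (5 cytosolic and 3 mitochondrial lower, 0 higher in either compartment), 11 after correction for GC and length (0 higher), 0 with the GC slope covariate, and 7 with the replicate block and GC correction together (5 cytosolic and 2 mitochondrial lower, 0 higher). With a log2FC limit of 0.34, 5 cytosolic members were lower. Against PCB 126, the 12 members called became 0, 2, 0 and 3 under the same 4 GC settings. Against Aroclor, DESeq2 and the FPKM filter called 3 members and the replicate block alone 1, counts given without the share of all genes in these fits. With each library left out, the counts ranged from 0 to 3 against Aroclor and 0 to 13 against PCB 126, and against HFD control from 5 to 9 for cytosolic members lower and 1 to 4 for mitochondrial members higher; the last fell to 1 without control replicates 1 or 2 or combined replicates 4 or 5. Under GC correction, 9 of the 36 members changed sign, all from above to below 0 (Dars, Eprs, Farsb, Lars, Nars, Hars2, Iars2, Mars2 and Rars2). Among the 15 members followed through all settings (the 10 given per mouse, Gars, Kars, Eprs, Wars and Rars), direction changed for Dars (-0.0301, -0.0074, -0.1613 and -0.0305 under GC correction, GC and length, the covariate and block with GC correction), for Eprs (-0.2285, -0.328, -0.3405 and -0.2258), and under the covariate for Sars (0.0181), Vars2 (0.0332) and Aars2 (0.1758). The replicate block without GC correction changed no call of these 15, nor did RLE size factors, DESeq2, no filter or the FPKM filter, which dropped Mars2 and Wars2. Same-numbered mice are different animals, so the numbers were not taken to pair them. Between groups, the deviations of same-numbered mice from their group means correlated between -0.267 and 0.697 (30 pairs, median 0.0410). Those of differently numbered mice correlated between -0.493 and 0.479 (120 pairs, median -0.0147). The covariate leaves little to tell apart where slope and exposure do not overlap. The cause of the GC slope was not tested.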
